A study of Mus musculus with 6 samples.

Results

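The TRAV12 family of TCRα variable genes was examined in single-cell TCR sequences of P2+CD4+ T cells. Its members were chosen by the V gene name alone, as every productive TCRα (TRA) contig, an assembled transcript with an open reading frame, listed under a gene whose name begins with TRAV12. They were 160 of the 999 cells with a productive TRA contig and 87 of the 782 clonotypes, under 6 of the 85 TRAV genes listed. Cells of a library whose TRA and TCRβ (TRB) were identical in V and J gene and in the nucleotides of the CDR3 made up a clonotype. The family was picked with earlier results of these data known, so its size in the libraries is a description and was not tested.

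The cells were CD4 single positive T cells from lymph nodes (LN), sorted for binding of a tetramer of the MHC class II molecule I-Ab with the P2 peptide of the retinal protein IRBP. All mice were AireGW/+ Lyn-/- and 9 wk old. AireGW is a partial loss-of-function allele of the thymic tolerance gene Aire, and Lyn is a kinase that restrains immune cell activation. Both conditions carried both mutations, so no library of mice without them was analysed here. Mice with uveitis, an inflammation of the retina and adjacent uvea, gave 2 libraries, dataset 1 and dataset 2, from pools of 7 and 8 mice, and which dataset came from which pool is not settled. Mice without uveitis gave 1 library from 16 pooled mice. Each pool is 1 sample, its cells are not replicates, and no p-value is given. Intervals in parentheses are exact (Clopper-Pearson) 95% binomial intervals, which cover counting error only and not the differences between mice.

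Cell barcodes numbered 212 in dataset 1, 365 in dataset 2 and 512 in the library without uveitis, with 5302, 7439 and 21408 unique molecular identifiers (UMIs, each marking 1 captured RNA molecule) in all contigs. A productive TRB contig was present in 94.8 to 98.4% of barcodes. The invariant α chain of iNKT cells was found in 1 cell, without uveitis, and that of MAIT cells in 0 cells. Dataset 2 and the library without uveitis shared 1 barcode, which held no TRAV12 chain in either. No filter on droplets with several cells was applied, and a second productive TRB was listed for 0, 0 and 4 TRAV12 cells.

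A TCRα chain is made in the thymus by joining 1 of many V genes to 1 of many J genes, with bases trimmed and added at the joint. The V gene encodes the CDR1 and CDR2 loops, which mostly contact the MHC molecule, and the joint encodes the CDR3 loop, which mostly contacts the peptide. In mice, much of the TRAV locus is present in several near-identical copies, and names with D or N mark copies of the gene with the same number. TRAV12 chains can therefore share everything but a few V gene bases and the joint.

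The TRAV12 genes differ at 1 base of the part that enters the CDR3, and that base is shown here because it is the only germline mark of the gene inside a CDR3 sequence. The GRCm38 annotation (GENCODE M21) places 9 functional TRAV12 genes on the plus strand of chromosome 14, and all 14 germline CDR3 bases were the same in them apart from the seventh, counted from the first base of the cysteine codon. The capital marks that base.

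TRAV12-2, TRAV12D-2 and TRAV12N-2: tgtgctTtgagtga
TRAV12-1, TRAV12-3, TRAV12D-1, TRAV12D-3, TRAV12N-1 and TRAV12N-3: tgtgctCtgagtga

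Among these genes, TRAV12-2 lies at chr14:53616315-53616914, TRAV12D-2 at chr14:52915799-52916426, TRAV12D-3 at chr14:52929789-52930282 and TRAV12N-1 at chr14:53155512-53156088. Over their annotated transcripts, TRAV12-2 and TRAV12D-2 were identical at 413 of 426 aligned bases (96.9%), and TRAV12-3 and TRAV12D-3 at 336 of 347 (96.8%). TRAV12-2 and TRAV12D-3 were identical at 321 of 338 (95%). TRAV12D-2 and TRAV12N-2 were identical at 454 of 454 bases, TRAV12D-1 and TRAV12N-1 at 436 of 436, and TRAV12D-3 and TRAV12N-3 at 347 of 347, so the contigs listed under TRAV12D-2, TRAV12D-3 and TRAV12N-1 cannot be told apart from those of the identical partner gene. No contig was listed under TRAV12D-1, TRAV12N-2 or TRAV12N-3.

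The CDR3α sequences of the largest TRAV12 clonotypes are shown next, with the bases that match neither the listed V gene end nor the J gene start in capitals.

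Dataset 1, TRAV12D-3 with TRAJ13, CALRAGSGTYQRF, 12 cells: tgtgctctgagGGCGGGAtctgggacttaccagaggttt
Dataset 1, TRAV12-2 with TRAJ47, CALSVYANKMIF, 8 cells: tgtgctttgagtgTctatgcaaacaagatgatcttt
Dataset 2, TRAV12-2 with TRAJ22, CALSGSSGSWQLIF, 16 cells: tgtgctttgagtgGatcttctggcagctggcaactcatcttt
Dataset 2, TRAV12D-2 with TRAJ15, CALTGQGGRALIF, 7 cells: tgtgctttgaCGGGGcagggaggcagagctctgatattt
Dataset 2, TRAV12D-3 with TRAJ23, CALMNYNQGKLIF, 6 cells: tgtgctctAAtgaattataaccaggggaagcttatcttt
Dataset 2, TRAV12-2 with TRAJ31, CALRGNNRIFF, 5 cells: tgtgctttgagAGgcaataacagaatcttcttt
No uveitis, TRAV12D-3 with TRAJ23, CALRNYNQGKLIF, 5 cells: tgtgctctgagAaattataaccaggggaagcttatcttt
No uveitis, TRAV12-1 with TRAJ37, 3 cells: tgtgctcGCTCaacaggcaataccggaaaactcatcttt

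Most of each sequence is germline, and the unmatched bases number 1 to 7 in these 8 chains.

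TRAV12 chains were a larger share of the P2+CD4+ T cells with uveitis than without, but the intervals of dataset 2 and the library without uveitis overlapped. In dataset 1, 43 of 186 cells with a productive TRA carried a TRAV12 chain, or 23.1% (17.3 to 29.8%). The 330 such cells of dataset 2 included 59 with TRAV12 (17.9%, 13.9 to 22.4%). The 483 of the library without uveitis included 58 (12%, 9.25 to 15.2%). Counted once per clonotype, the shares lay closer together, at 22 of 154 clonotypes in dataset 1 (14.3%, 9.17 to 20.8%), 19 of 155 in dataset 2 (12.3%, 7.54 to 18.5%) and 46 of 473 without uveitis (9.73%, 7.21 to 12.8%), and these 3 intervals overlapped. Counted once per CDR3α nucleotide sequence, they were 14 of 136 (10.3%, 5.74 to 16.7%), 17 of 140 (12.1%, 7.24 to 18.7%) and 47 of 475 (9.89%, 7.36 to 12.9%), closer still. By cells, the family had rank 2 of 15 TRAV families in both uveitis datasets, after TRAV9, and rank 4 of 18 without uveitis.

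**Figure D1:**
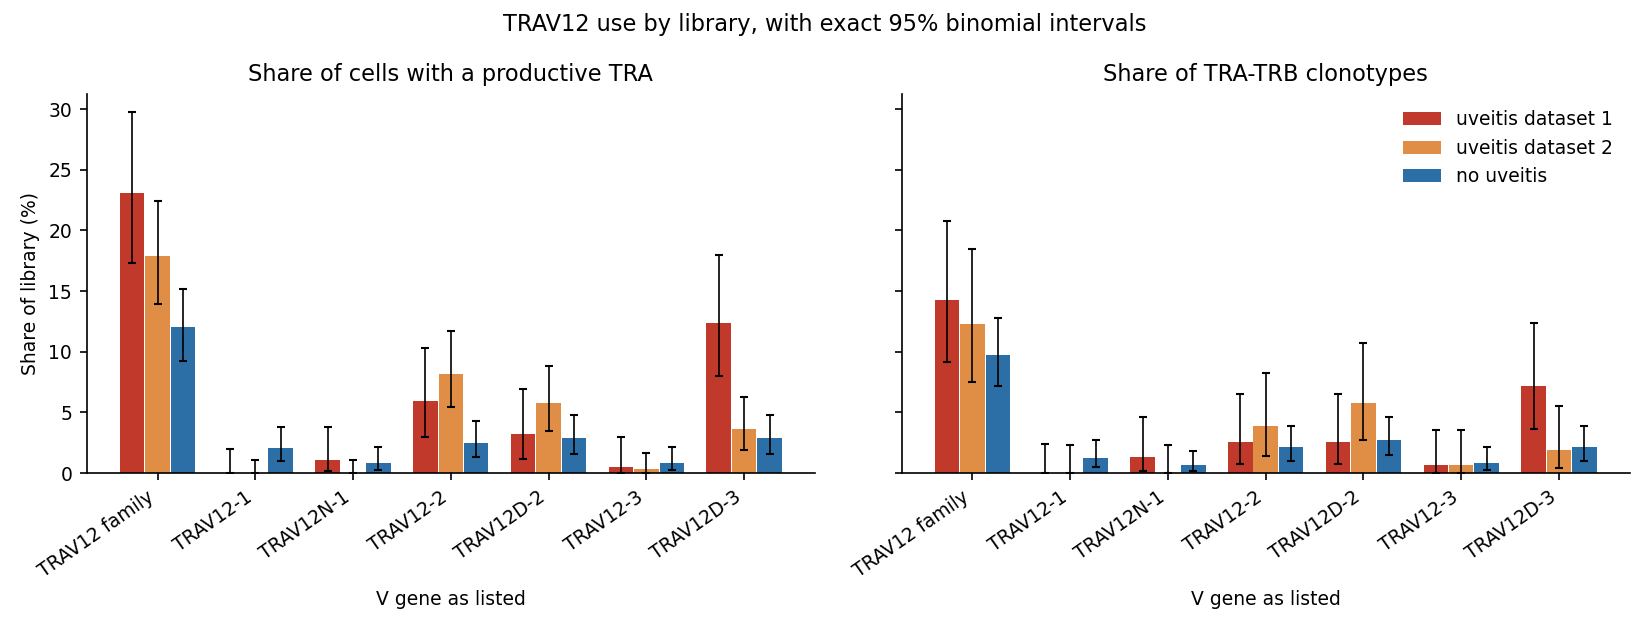
Share of each library, in percent, listed under the TRAV12 family and under each of its 6 genes found, by cells with a productive TRA (left) and by TRA-TRB clonotypes (right). Bars are the 3 libraries and lines are exact 95% binomial intervals. By cells the family made up 23.1%, 17.9% and 12%, and by clonotypes 14.3%, 12.3% and 9.73%.

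A different gene led the family in each uveitis dataset. TRAV12D-3 was listed for 23 of the 43 TRAV12 cells of dataset 1, for 12 of 59 in dataset 2 and for 14 of 58 without uveitis. TRAV12-2 was listed for 11, 27 and 12 cells, and TRAV12D-2 for 6, 19 and 14. By clonotypes, TRAV12D-3 still led dataset 1, with 11 of 22, while TRAV12D-2 led dataset 2, with 9 of 19, and the library without uveitis, with 13 of 46. TRAV12N-1, which has the germline base C at the marked position, was listed for 2, 0 and 4 cells, and TRAV12-3 for 1, 1 and 4.

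TRAV12-1 was listed in the library without uveitis and not with uveitis among productive contigs. Without uveitis it was found in 10 of 483 cells (2.07%, 0.997 to 3.77%) and in 6 clonotypes. It was found in 0 of 186 cells of dataset 1, which allows a share of up to 1.61% (3 counts of the total), and in 0 of 330 cells of dataset 2, which allows up to 0.909%. A single contig of dataset 1 that was not listed as productive carried TRAV12-1. The exact intervals of these 2 shares, 0 to 1.96% and 0 to 1.11%, both overlapped that without uveitis, and the difference was not tested. Merged with its copies, TRAV12-1 was in 2 of 186 cells of dataset 1 (1.08%, 0.130 to 3.83%) and 0 of 330 of dataset 2 (0 to 1.11%). Without uveitis it was then in 14 of 483 (2.90%, 1.59 to 4.82%). That interval overlapped the one of dataset 1 and lay above the one of dataset 2.

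TRAV12 cells belonged to expanded clonotypes, those of more than 1 cell, more often than cells of other TRAV genes in all 3 libraries. In dataset 1, 24 of 42 TRAV12 cells with a TRB were in expanded clonotypes (57.1%, 41.0 to 72.3%), against 32 of 153 chains of other TRAV genes (20.9%, 14.8 to 28.2%). In dataset 2, the counts were 46 of 57 (80.7%, 68.1 to 90.0%) against 194 of 294 (66%, 60.3 to 71.4%). Without uveitis, they were 16 of 56 (28.6%, 17.3 to 42.2%) against 87 of 492 (17.7%, 14.4 to 21.3%). The intervals were apart in dataset 1 and overlapped in the other 2 libraries. A cell with a TRAV12 chain and another productive TRA counted on both sides. The TRAV9 family was part of the other TRAV genes here. It held 49 cells in 37 clonotypes in dataset 1, 154 in 48 in dataset 2 and 85 in 50 without uveitis. TRAV12 held 43 in 22, 59 in 19 and 58 in 46. TRAV12 thus had more cells for each clonotype than TRAV9 in dataset 1 only.

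Few clonotypes made up the expanded share of TRAV12 cells. Expanded TRAV12 clonotypes numbered 4 of 22 in dataset 1, 8 of 19 in dataset 2 and 6 of 46 without uveitis (18.2%, 42.1% and 13%), against 11 of 132, 36 of 136 and 22 of 427 clonotypes of other TRAV genes (8.33%, 26.5% and 5.15%). Counted this way, the intervals overlapped in all 3 libraries, at 5.19 to 40.3% against 4.23 to 14.4%, 20.3 to 66.5% against 19.3 to 34.7%, and 4.94 to 26.3% against 3.26 to 7.70%. Without the largest clonotype of each side, the expanded share of TRAV12 cells was 12 of 30 (40%) in dataset 1, against 25 of 146 (17.1%) for other TRAV genes. It was 30 of 41 (73.2%) against 157 of 257 (61.1%) in dataset 2. Without uveitis it was 11 of 51 (21.6%) against 69 of 474 (14.6%). The TRAV12 share was the higher in each library, but no intervals were computed for this count.

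**Figure D2:**
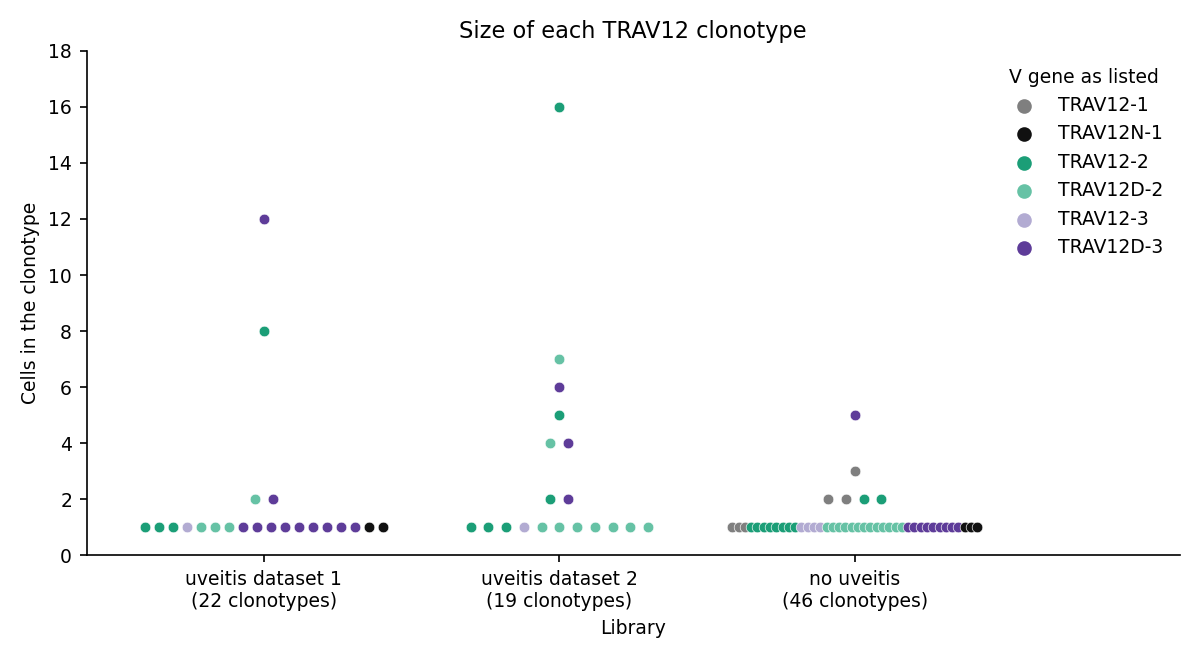
Cells in each TRAV12 clonotype (vertical axis) for the 3 libraries, 1 point per clonotype, coloured by the listed V gene. The largest clonotypes held 12 cells in dataset 1, 16 in dataset 2 and 5 without uveitis, and single cells made up 18 of 22, 11 of 19 and 40 of 46 clonotypes.

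The large TRAV12 clonotypes of both uveitis datasets included TRAV12-2 and TRAV12D-3, and those of dataset 2 also TRAV12D-2. Their TRAJ genes and β chains differed between the datasets. The TRAV12D-3 clonotype of 12 cells in dataset 1, paired with TRBV3, rested on 2 to 17 α UMIs per cell (median 7) and 10 to 42 β UMIs. The second of dataset 1 paired TRAV12-2 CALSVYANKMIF with TRBV23 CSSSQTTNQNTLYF in 8 cells, with 2 to 11 α UMIs. The P2.U2 transgenic mice of the study carry clonotype 2 of dataset 1, a TCR of these V genes. The study's genotyping primer for that α chain matches the nucleotides of this CDR3α across its joint. In dataset 2, TRAV12-2 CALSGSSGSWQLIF was paired with TRBV4 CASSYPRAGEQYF in 16 cells, with 1 to 11 α UMIs, and made up 4.94% (2.85 to 7.90%) of the 324 cells with both chains. Next were TRAV12D-2 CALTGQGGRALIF with TRBV20 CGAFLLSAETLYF in 7 cells, TRAV12D-3 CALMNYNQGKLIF with TRBV5 in 6 and TRAV12-2 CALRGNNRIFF with TRBV31 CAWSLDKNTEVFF in 5. TRAV12D-2 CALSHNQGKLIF, joined to TRAJ23, was paired with TRBV15 in 4 cells of dataset 2. Without uveitis, the largest TRAV12 clonotype joined TRAV12D-3 to TRAJ23 and held 5 cells.

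TRAV12 genes were joined to 11 of the 40 TRAJ genes found in dataset 1, 13 of 42 in dataset 2 and 27 of 43 without uveitis. TRAJ13 was the partner of 5 of 22 TRAV12 clonotypes in dataset 1 and of 1 of 132 clonotypes of other TRAV genes. All 5 TRAV12 clonotypes carried the same CDR3α, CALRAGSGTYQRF, with 5 different β chains. TRAJ23, whose germline segment supplies the residues NYNQGKLIF, was the partner of 4 of 22 TRAV12 clonotypes in dataset 1 (18.2%, 5.19 to 40.3%), against 5 of 132 of other TRAV genes (3.79%, 1.24 to 8.62%). In dataset 2, it was the partner of 4 of 19 (21.1%, 6.05 to 45.6%) against 3 of 136 (2.21%, 0.457 to 6.31%). Without uveitis, the counts were 4 of 46 (8.70%, 2.42 to 20.8%) against 22 of 427 (5.15%, 3.26 to 7.70%). The TRAJ23 share of TRAV12 was above that of other TRAV genes in each library, with overlapping intervals in all 3. TRAJ21 and TRAJ22 were each joined to 2 TRAV12 clonotypes in dataset 1, and TRAJ22 to 2 in dataset 2. For other TRAV genes, TRAJ21 was joined to 3 of 132 in dataset 1, and TRAJ22 to 7 of 132 and 9 of 136. TRAJ31 was joined to 2, 2 and 4 TRAV12 clonotypes, and TRAJ32 to 4 of 46 without uveitis against 6 of 427 of other TRAV genes. In each uveitis dataset, the 2 TRAJ22 clonotypes had the same CDR3α nucleotide sequence, with different β chains. The same was true of the 2 TRAJ31 clonotypes of each, and of the 2 TRAJ21 clonotypes of dataset 1. Among the TRAJ23 clonotypes of dataset 1, 2 had the same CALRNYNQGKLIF sequence.

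**Figure D3:**
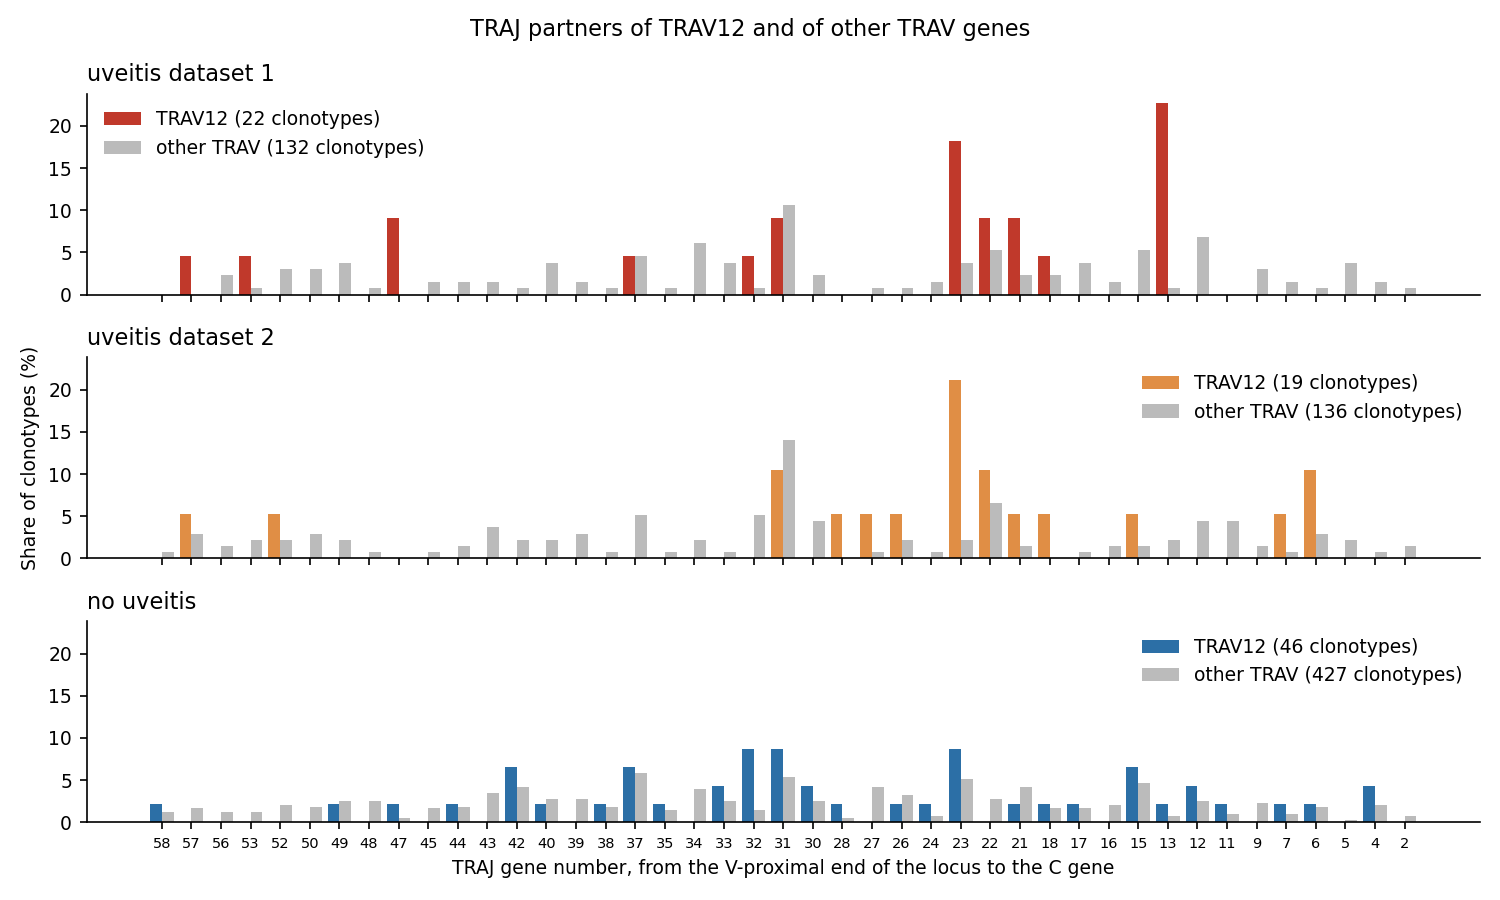
Share of clonotypes, in percent, joined to each TRAJ gene, for TRAV12 (coloured) and other TRAV genes (grey) in each library, with TRAJ genes in their order along the locus. TRAJ13 stood at 22.7% and TRAJ23 at 18.2% of TRAV12 clonotypes in dataset 1, TRAJ23 at 21.1% in dataset 2, and the 46 clonotypes without uveitis were spread over 27 TRAJ genes.

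Among β chains, TRBV13-2 was the most frequent partner in dataset 1, in 8 of 22 TRAV12 clonotypes (36.4%, 17.2 to 59.3%), against 19 of 132 of other TRAV genes (14.4%, 8.89 to 21.6%). In dataset 2 it was the partner of 2 of 19 against 15 of 136, and without uveitis of 4 of 46 against 51 of 427. The intervals of dataset 1 overlapped, and its 8 clonotypes held 5 distinct β chains, since some recurred with several α chains. Counted once per β chain, TRBV13-2 made up 5 of 17 beside TRAV12 (29.4%, 10.3 to 56.0%) and 14 of 97 beside other TRAV genes (14.4%, 8.12 to 23.0%). TRBV19 was the partner of 4 of 22 clonotypes in dataset 1 and of 6 of 46 without uveitis, and TRBV20 and TRBV5 each of 3 of 19 in dataset 2. In clonotypes of other TRAV genes, TRBV19 was in 10 of 132 and 32 of 427. There, TRBV20 was in 16 of 136 and TRBV5 in 12 of 136. TRBV3 was the partner of 3 of 22 clonotypes in dataset 1 and of 5 of 46 without uveitis, where TRBV26 also was of 5. For other TRAV genes, TRBV3 was in 16 of 132 and 41 of 427, and TRBV26 in 26 of 427. TRBJ2-1 was used by 6 of 22, 5 of 19 and 4 of 46 TRAV12 clonotypes, and TRBJ2-7 by 4 of 22, 6 of 19 and 15 of 46. With other TRAV genes, TRBJ2-1 was used by 15 of 132, 21 of 136 and 44 of 427. TRBJ2-7 was used there by 31 of 132, 27 of 136 and 73 of 427. TRBJ2-4 and TRBJ2-5 each followed with 3 of 22 in dataset 1, and without uveitis TRBJ2-5 with 8 of 46 and TRBJ1-1 with 5. Among other TRAV genes, 6 and 31 of 132 clonotypes used TRBJ2-4 and TRBJ2-5 in dataset 1. Without uveitis, 66 and 40 of 427 used TRBJ2-5 and TRBJ1-1. Genes of the TRBJ2 cluster made up 81.8%, 89.5% and 69.6% of TRAV12 clonotypes, against 75.8%, 71.3% and 64.4% of those of other TRAV genes.

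The clonotypes that joined TRAV12D-3 to TRAJ23 shared a β chain feature that the choice of members did not use. This group was noticed after its values were seen, so its counts are a description with no test. It held 6 clonotypes and 18 cells, of which 3 clonotypes were in dataset 1, 2 in dataset 2 and 1 without uveitis. All 6 had a CDR3α of 13 residues ending in YNQGKLIF and a CDR3β of 16 residues with Gly-Gly-Arg at residues 9 to 11. The β chains are shown because several of them encode the motif with different codons. The CDR3α is given before each, and the capitals mark the 9 bases that encode Gly-Gly-Arg.

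Dataset 1, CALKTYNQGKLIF, TRBV13-2, TRBJ2-1, 1 cell: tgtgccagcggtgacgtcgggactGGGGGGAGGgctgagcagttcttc
Dataset 1, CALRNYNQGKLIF, TRBV13-2, TRBJ2-1, 1 cell: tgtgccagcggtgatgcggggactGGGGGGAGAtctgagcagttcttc
Dataset 1, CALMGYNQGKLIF, TRBV13-2, TRBJ2-7, 1 cell: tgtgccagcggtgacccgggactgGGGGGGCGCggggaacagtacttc
Dataset 2, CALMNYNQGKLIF, TRBV5, TRBJ2-1, 6 cells: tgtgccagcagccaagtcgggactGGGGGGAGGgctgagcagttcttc
Dataset 2, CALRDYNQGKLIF, TRBV13-2, TRBJ2-1, 4 cells: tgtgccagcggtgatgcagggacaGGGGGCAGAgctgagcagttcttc
No uveitis, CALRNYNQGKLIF, TRBV13-2, TRBJ1-6, 5 cells: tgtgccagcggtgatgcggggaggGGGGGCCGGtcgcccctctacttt

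The 6 sequences differ from each other, so that no β nucleotide sequence recurred among them. TRBV13-2 was used by 5 of the 6. Outside this group, Gly-Gly-Arg occurred in the CDR3β of 6 of 18 clonotypes of TRAV12D-3 with other TRAJ genes (33.3%, 13.3 to 59.0%), of 0 of 6 of other TRAV12 genes with TRAJ23, and of 1 of 57 of other TRAV12 genes with other TRAJ genes. Among other TRAV genes it occurred in 2 of 30 clonotypes with TRAJ23 (6.67%, 0.818 to 22.1%) and in 14 of 665 with other TRAJ genes (2.11%, 1.16 to 3.51%). Of the clonotypes of other TRAV genes that used TRBV13-2, 8 of 85 had the motif. The clonotypes of TRAV12D-3 with other TRAJ genes were not independent of the group. Of their 6 with the motif, 4 carried a β chain of the group, in other cells of the same library with another α chain. Of the 14 clonotypes of other TRAV genes with other TRAJ genes, 4 also carried a β chain of the 6, as with the second α chain of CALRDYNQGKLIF cells described next. The group also rests on the listed gene name, since 1 of the 6 clonotypes of other TRAV12 genes with TRAJ23 was a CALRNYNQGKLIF cell of dataset 1 listed under TRAV12-2, whose nucleotide sequence was that of the TRAV12D-3 clonotype. It was paired with TRBV23 and lacked the motif. Among the clonotypes of TRAV12D-3 with other TRAJ genes and the motif, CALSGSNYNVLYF of dataset 1 and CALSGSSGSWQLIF of dataset 2 had T as seventh base. That is the germline base of TRAV12-2 and TRAV12D-2, whose end they matched over 11 and 13 bases.

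**Figure D4:**
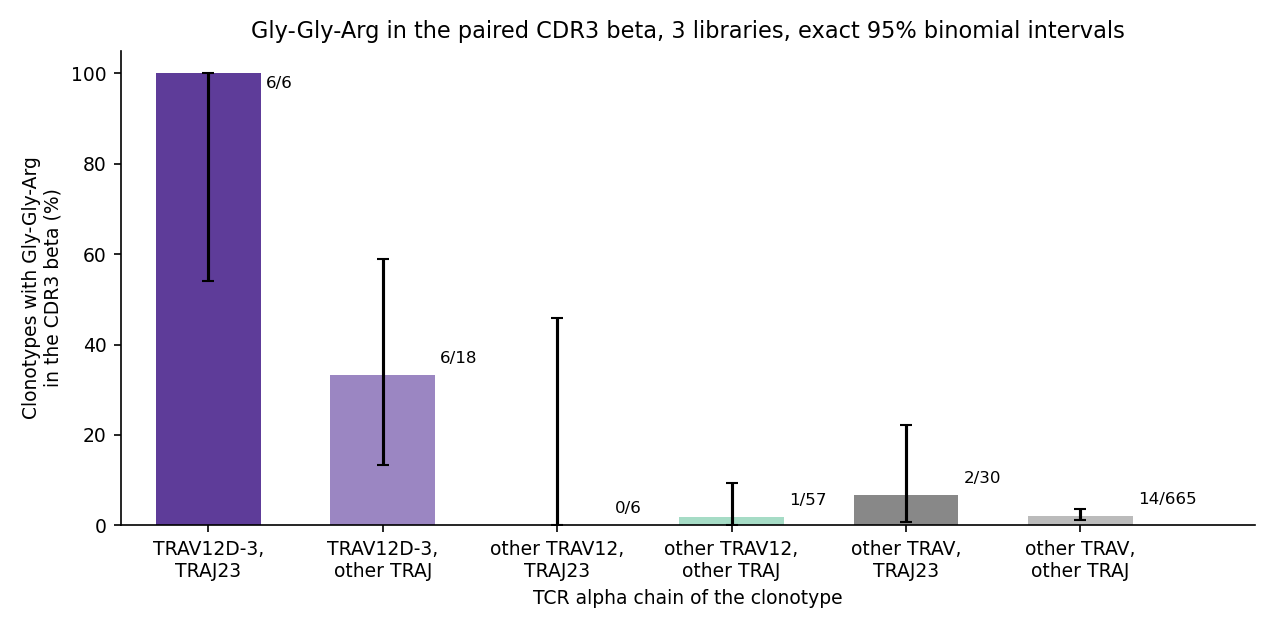
Share of clonotypes, in percent, with Gly-Gly-Arg in the CDR3β, by the V and J gene of the α chain, over the 3 libraries. Bars are shares, lines are exact 95% binomial intervals and labels give clonotypes with the motif over all. The TRAV12D-3 with TRAJ23 bar stands at 6 of 6 and that of other TRAV genes with other TRAJ genes at 14 of 665.

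The α chains of this group rested on 8, 6 and 4 UMIs in the 3 single cells of dataset 1. The 6 cells of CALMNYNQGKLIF had 3 to 8, the 4 cells of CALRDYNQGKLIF 2 to 5, and the 5 cells without uveitis 2 to 9. In 3 of the 4 cells of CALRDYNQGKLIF a TRAV8D-2 chain joined to TRAJ11 was also listed. With contigs of at least 2 UMIs, the group held 6 clonotypes with the motif and 17 cells.

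Several TRAV12 α chains recurred with different β chains in dataset 1. There, 6 of 13 TRAV12 CDR3α nucleotide sequences with a TRB were found with more than 1 TRB sequence (46.2%, 19.2 to 74.9%), against 12 of 116 of other TRAV genes (10.3%, 5.46 to 17.4%). In dataset 2, 2 of 17 were, against 9 of 120 (7.50%, 3.49 to 13.8%), and without uveitis 0 of 46 were, against 6 of 418 (1.44%, 0.529 to 3.1%). The intervals of TRAV12 and other TRAV genes were apart in dataset 1 alone. With contigs of at least 2 UMIs, the dataset 1 count of TRAV12 fell from 6 to 4. With only cells of 1 TRA and 1 TRB it was also 4. No intervals were computed for these 2 alternatives. The α chain with the most partners, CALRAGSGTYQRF, was found in 16 cells with 5 β chains. Of these, 12 cells made up the TRBV3 clonotype, with a median of 7 α UMIs, and the 4 cells with another β chain had 1, 1, 3 and 3 α UMIs.

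Some β chains in turn recurred with different TRAV12 chains, namely 4 in dataset 1 and 2 in dataset 2. In dataset 1, TRBV23 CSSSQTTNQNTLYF was paired with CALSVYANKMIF in 8 cells and with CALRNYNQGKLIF in 1 cell with 8 α UMIs. In dataset 2, TRBV4 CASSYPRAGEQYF was paired with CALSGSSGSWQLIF in 16 cells and with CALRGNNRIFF in 1 further cell. TRBV5 with the Gly-Gly-Arg motif was paired with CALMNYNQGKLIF in 6 cells and with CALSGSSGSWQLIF in 2, both with 3 α UMIs. Each of these rarer α chains was also that of another clonotype of the same library with at least as many cells. The part of free RNA and of droplets with several cells in these pairings was not tested.

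One CDR3α nucleotide sequence could be listed under more than 1 TRAV12 gene. This was so for 5 of 14 sequences in dataset 1, which held 32 of its 43 TRAV12 cells, for 1 of 17 in dataset 2, which held 18 of 59, and for 0 of 47 without uveitis. The TRAJ13 sequence of dataset 1 was listed under 4 genes, as TRAV12D-3 in 13 cells and as TRAV12-2, TRAV12D-2 and TRAV12N-1 in 1 cell each. In dataset 2, the TRAJ22 sequence was listed under TRAV12-2 in 16 cells and under TRAV12D-3 in 2. All but 1 gene call of each sequence thus rested on 1 or 2 cells.

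The seventh base gave a check on these gene names. Of the 86 distinct chains, 76 carried the germline seventh base of the gene they were listed under, and these were 149 of 160 cells. The 10 others were in 6 cells of dataset 1, 3 of dataset 2 and 2 without uveitis. Of the 10, 7 (8 cells) matched the other germline end over 11 to 14 bases, which is past the position of the difference. Printed here are 4 cases, with the bases that match neither the listed V gene nor the J gene in capitals and the difference given as the listed gene's base, its position and the base found.

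Dataset 1, listed TRAV12-2, TRAJ13, T7C, 1 cell: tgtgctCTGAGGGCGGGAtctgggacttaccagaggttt
Dataset 1, listed TRAV12-2, TRAJ23, T7C, 1 cell: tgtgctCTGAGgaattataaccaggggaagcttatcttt
Dataset 1, listed TRAV12D-3, TRAJ21, C7T, 1 cell: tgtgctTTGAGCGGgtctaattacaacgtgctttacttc
Dataset 2, listed TRAV12D-3, TRAJ22, C7T, 2 cells: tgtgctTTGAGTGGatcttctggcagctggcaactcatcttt

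In each of these 4 the same nucleotide sequence was also listed in its library under a gene whose germline base it carried. The counts by gene in dataset 1, where 6 of 43 cells carried the other base, are therefore less certain than those without uveitis, where 2 of 58 did. The shares of the whole family do not depend on the gene name within it. In the printed TRAJ23, TRAJ21 and TRAJ22 cases, other TRAV12 cells of the same library had the same β chain with another α chain. These were 8, 2 and 6 cells, all listed under the same gene as the case itself. The TRAJ13 case had 0 such cells. Why the listed gene was that of the other cells with the β chain was not tested.

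**Figure D5:**
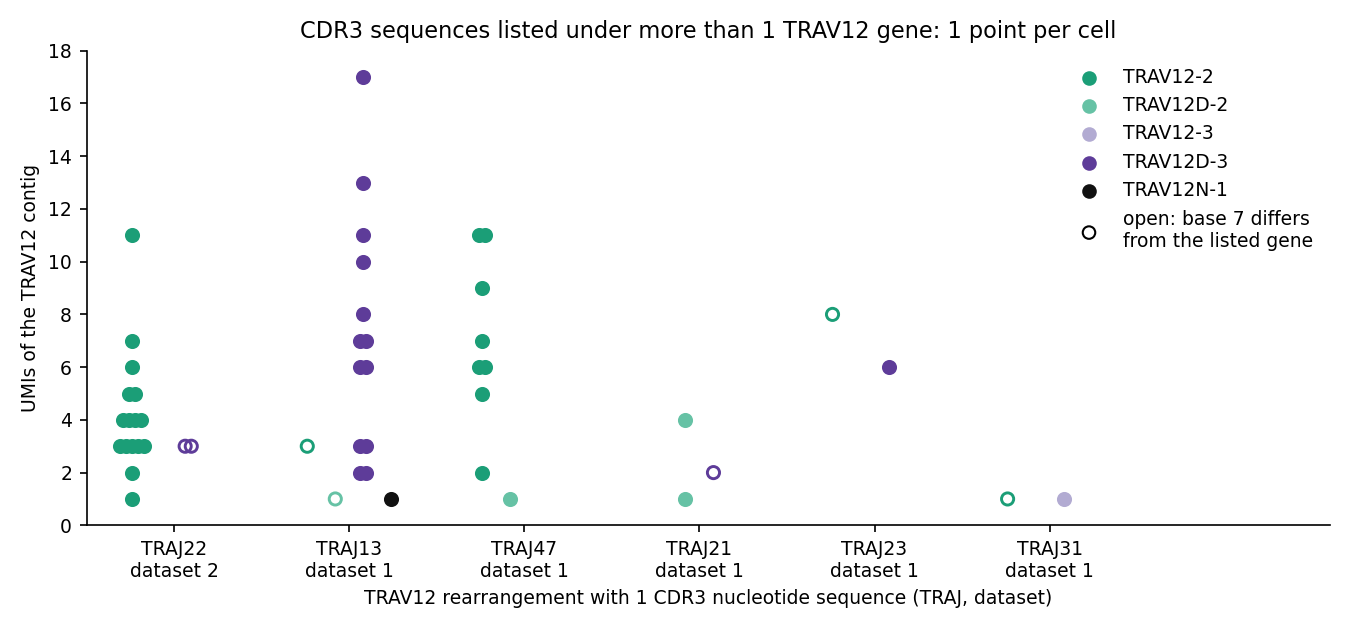
UMIs of the TRAV12 contig (vertical axis) in every cell whose CDR3α nucleotide sequence was listed under more than 1 TRAV12 gene, by J gene and dataset, coloured by the listed gene. Open points are cells whose seventh CDR3 base differs from the germline of the listed gene. The 12 cells of the TRBV3 clonotype lie at 2 to 17 UMIs in the TRAJ13 column, and both open points of dataset 2 lie at 3 UMIs.

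Over distinct CDR3α sequences, with the TRAV12 end that matched the most bases, a median of 2.5 bases in dataset 1 (range 0 to 7), of 2 bases in dataset 2 (range 0 to 5) and likewise of 2 without uveitis (range 0 to 8) matched neither germline end. No unmatched base remained in 1 of 14, 2 of 17 and 9 of 47 sequences. With the listed genes, the medians were 4, 2 and 2 over distinct chains, against 3 in each library for other TRAV genes, which were matched to their listed gene alone. With the best-matching end, the germline bases kept at the V end had a median of 11 in each library. With the listed genes it was 10 in dataset 1. The seventh base was T in 5 of the 14 sequences of dataset 1, 14 of 17 in dataset 2 and 24 of 47 without uveitis. By that base alone, without the listed names, the ends of TRAV12-2, TRAV12D-2 and TRAV12N-2 were most frequent in dataset 2 and least in dataset 1.

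CDR3α length had a median of 13 residues in all 3 libraries (ranges 12 to 16, 11 to 16 and 9 to 16), against 13, 14 and 14 for other TRAV genes. In dataset 1, 13 of 21 distinct TRAV12 chains had 13 residues (61.9%), against 34.4% of other chains. The shares were 33.3% against 38.9% in dataset 2 and 31.9% against 27.8% without uveitis. The dataset 1 count takes a sequence listed under several genes once for each gene. Counted once per CDR3α nucleotide sequence, 7 of 14 in dataset 1 had 13 residues (50%, 23.0 to 77.0%), against 40 of 122 of other chains (32.8%, 24.6 to 41.9%), with overlapping intervals. TRAV12 contigs rested on a median of 5, 4 and 6 UMIs, against 5, 5 and 7 for other TRA contigs. A single UMI supported 6 of 43 TRAV12 contigs in dataset 1, 2 of 59 in dataset 2 and 2 of 58 without uveitis.

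A second productive TRA was less frequent beside TRAV12 with uveitis than without, at 4 of 43 cells in dataset 1 (9.30%, 2.59 to 22.1%), 4 of 59 in dataset 2 (6.78%, 1.88 to 16.5%) and 18 of 58 without uveitis (31.0%, 19.5 to 44.5%). The interval of dataset 1 overlapped that without uveitis, and that of dataset 2 lay below it. For other TRA contigs the shares were 21%, 16.8% and 27.4%. The library without uveitis had a median of 7 UMIs per productive TRA contig, against 5 and 4, and the part of this depth in the difference was not tested. The TRAV12 chain had the most UMIs of its cell in 42 of 43, 56 of 59 and 52 of 58 cells.

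A CDR3α amino acid sequence was shared by dataset 1 and dataset 2 once, by dataset 1 and the library without uveitis in 2 cases, and by dataset 2 and the library without uveitis once. These were 1 of 14, 2 of 14 and 1 of 16 TRAV12 amino acid sequences of the first-named library, beside 7 of 121, 4 of 121 and 6 of 117 for other TRA chains. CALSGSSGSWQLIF was in both uveitis datasets, in 1 cell of dataset 1 and 18 of dataset 2, with the nucleotide difference G15A from dataset 1 to dataset 2. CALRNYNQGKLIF was in 2 cells of dataset 1 and 5 without uveitis, and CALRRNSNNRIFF in 2 and 1, each with A12G from the library without uveitis to dataset 1. Synonymous codons thus told the pools apart in these 3 sequences.

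A single TRAV12 nucleotide sequence was shared, between dataset 2 and the library without uveitis, in 1 cell of each. It joined TRAV12D-2 to TRAJ18, encoded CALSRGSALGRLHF and held no unmatched base.

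TRAV12D-2 with TRAJ18, both libraries: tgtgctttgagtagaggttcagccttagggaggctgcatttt

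Both cells also had the β amino acid sequence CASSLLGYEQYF with TRBV16, from different nucleotide sequences, with T18G and G21C from the library without uveitis to dataset 2. The α contig rested on 12 UMIs in dataset 2 and 5 without uveitis. A CDR3β of the Gly-Gly-Arg group recurred in a like way, since that of the dataset 2 clonotype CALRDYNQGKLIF was found without uveitis with a TRAV13D-2 chain, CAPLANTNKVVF, in 1 cell, from a sequence that differed at 3 bases.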

How the data were processed

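P2+CD4+ T cells were analysed from 3 single-cell TCR libraries, and the 3 mRNA libraries of the 6 samples were not used here. The authors used Cell Ranger (version 3, per the labels) and deposited, for each contig, whole-number counts of reads and UMIs without normalization, its length in bases, V and J genes, CDR3 and whether it was productive. Assembly favours abundant transcripts, so chains with few UMIs can be missed, and V gene copies are named from few differing bases.

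Every productive TRA contig was used, and its β partner was the productive TRB with most UMIs, then most reads. Clonotypes followed the study's definition by identical TRA and TRB nucleotide sequences, with V and J genes added, and expanded meant more than 1 cell. The uveitis datasets were also combined. V ends and J starts came from GENCODE M21 transcripts of GRCm38, and each CDR3 was matched from its 5′ end to the V gene, then from its 3′ end to the J gene. The germline copies may differ from those of these mice.

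Shares have 95% Clopper-Pearson intervals, and a count of 0 was given the share of 3 counts. Each library is 1 pool, so no test was made. Clonotypes were named if among the 3 largest of a library or of at least 3 cells, CDR3α sequences if found under several genes, with several TRB or in several libraries, and J and β genes if among the 3 most used. Further chains and the Gly-Gly-Arg group were chosen with their values known. The members and lists were chosen with earlier results of these data known. Junction and share code was tested on simulated data. Alternatives were contigs of at least 2 UMIs, 1 TRA per cell, only cells with 1 chain of each kind, no cells with several TRB, other clonotype definitions, clonotypes in place of cells, and each uveitis dataset left out. Python 3.11.15, pandas 2.3.3, numpy 2.4.6, scipy 1.17.1, Biopython 1.88 and matplotlib 3.10.9 were used.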

Additional observations from a re-analysis of the deposited data

Results flagged for a closer look

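TRAV12 contigs that were not listed as productive were outside the comparisons above and exceeded the 3 counts that a count of 0 allows in 2 libraries. Dataset 1 held 14 of them, in 13 barcodes, with 1 to 10 UMIs (median 3.5), and the library without uveitis held 9, in 9 barcodes, with 2 to 16 UMIs (median 4). Dataset 2 held 2. They were 14 of 53 TRAV contigs not listed as productive in dataset 1, 2 of 30 in dataset 2 and 9 of 95 without uveitis. Among productive TRA contigs, 43 were TRAV12 and 162 were not in dataset 1. These numbers were 59 and 298 in dataset 2, and 58 and 503 without uveitis. A productive TRAV12 contig was present in 1 of the 13 barcodes of dataset 1 and in 0 of the 9 without uveitis.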

How the results depend on the processing

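Of 180 alternatives for 38 results, 174 left the value within its interval or, for a count, within 1.5 times, and 6 did not. Some of the 174 could not move. The TRAV12 share of cells, for one, does not depend on merging gene copies or on the clonotype definition. The interval of a median ran between order statistics and was wide for UMIs, at 3 to 7 in dataset 1, where the median fell from 5 to 3 with 1 cell per clonotype. The combined uveitis datasets depended on which pool was kept. Leaving out 1 of the uveitis datasets, the expanded share of TRAV12 cells was 57.1 to 80.7%, against 70.7% combined. Its difference from other TRAV genes was 14.7 to 36.2 percentage points, against 20.1. The TRAV12 share of cells was then 17.9 to 23.1%, against 19.8%, and of clonotypes 12.3 to 14.3%, against 13.3%. Counted by clonotypes in place of cells with a TRB, TRAV12D-2 made up 47.4% of TRAV12 in dataset 2, against 31.6%. TRAJ13 likewise made up 22.7% in dataset 1, against 38.1%. With contigs of at least 2 UMIs, 3 CDR3α sequences of dataset 1 were listed under several genes, against 5. The 3 alternatives for the Gly-Gly-Arg count were chosen after seeing the data, and each gave 6. No paired analysis was possible because no test was made and the groups share fewer than 2 replicate numbers. With 42 to 57 TRAV12 cells with a TRB per library, shares within the family have wide intervals.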
